A study of Mus musculus with 15 samples.

Results

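The genes described here are 45 mouse genes of fibrosis, collagen and extracellular matrix, listed by symbol with earlier results of these data known. All 45 had a row among the 56980 gene IDs of the count table. Their RNA was measured by poly(A)-selected, strand-keeping RNA-seq of livers from male C57BL/6J mice, an inbred laboratory strain, of genotype WT, that were 15 weeks old when the diets began and ate them for 9 months. The ketogenic group (5 libraries) ate 89.9% fat, the high-fat group (5 libraries) 60% fat and the control group (4 libraries) a diet of 10% fat. The labels mark every group ALF, an abbreviation that they do not spell out. Control replicate 1 was left out because the submitters exclude it as contaminated, and the 14 libraries used held 16329425 to 25349148 counts. Whether each library is a separate mouse is not stated in the labels, so p-values measure only the spread between these samples, which may be technical.

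Levels are CPM, counts relative to a library total that was scaled with TMM, and they are compared between diets only, never between genes. Differences are log2 fold changes, ketogenic or high-fat over control, each with its SE from edgeR's quasi-likelihood test, and a gene was called higher or lower at a Benjamini-Hochberg adjusted p under 0.05 over 14627 genes. All 45 genes passed the filter on low counts, Mmp13 and Timp1 only through the ketogenic and high-fat libraries. Lox (12, 4, 5 and 3 counts in the controls) and Tgfb2 (11, 10, 10 and 4) also needed libraries of the other diets to pass. The tissue label was checked with 12 hepatocyte markers, which summed to 90750 to 194600 CPM, and none of the 12 was at 0 in all libraries.

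The extracellular matrix is the protein scaffold around cells. In the liver it is made mainly by hepatic stellate cells, pericytes of the sinusoids that can turn into contractile myofibroblasts after injury, and by portal fibroblasts. Collagen chains are assembled in the endoplasmic reticulum, secreted, bundled into fibrils with the help of small proteoglycans and crosslinked by lysyl oxidases, while metalloproteinases cut matrix and TIMP proteins inhibit them. TGF-beta and PDGF are the best known signals that drive stellate cells, and fibrosis is the build-up of this matrix when deposition outruns removal.

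RefSeq promoter windows on GRCm38.p6, 250 bases before to 50 bases after the start site, were found for 29 of the 45 genes. Of these windows, 5 are shown because their genes were called higher in at least 1 comparison with control and span the fibrils, the basement membrane and matrix turnover. Capitals mark matches, on either strand, to 4 motifs. The first is CCAAT, whose reverse complement is ATTGG, and the second is TATAAA. The others are TGANTCA, the palindrome known for AP-1 factors, and a relative of it, TGAGTAA. No match to one motif overlaps a match to another in these windows. The type I collagen gene Col1a2 (chr6:4505368-4505667, plus strand) holds CCAAT on both strands. The type III collagen gene Col3a1 (chr1:45311288-45311587, plus strand) holds TATAAA. The window of the type IV collagen gene Col4a2 (chr8:11312555-11312854, plus strand) holds CCAAT and is shared with Col4a1, which is read the other way from a start site 21 bases off, at base 272 of the window. The collagenase gene Mmp13 (chr9:7272264-7272563, plus strand) has TGACTCA beginning 35 bases and TATAAA beginning 16 bases before its start site. The inhibitor gene Timp1 (chrX:20869916-20870215, plus strand) has ATTGG upstream and TGAGTAA just past its start site.
Col1a2: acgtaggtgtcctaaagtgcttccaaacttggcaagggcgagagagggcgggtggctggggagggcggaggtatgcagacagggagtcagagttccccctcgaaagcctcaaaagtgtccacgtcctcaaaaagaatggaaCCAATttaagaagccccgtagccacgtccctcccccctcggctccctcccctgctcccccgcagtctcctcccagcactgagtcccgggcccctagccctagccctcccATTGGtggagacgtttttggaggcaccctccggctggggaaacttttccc
Col3a1: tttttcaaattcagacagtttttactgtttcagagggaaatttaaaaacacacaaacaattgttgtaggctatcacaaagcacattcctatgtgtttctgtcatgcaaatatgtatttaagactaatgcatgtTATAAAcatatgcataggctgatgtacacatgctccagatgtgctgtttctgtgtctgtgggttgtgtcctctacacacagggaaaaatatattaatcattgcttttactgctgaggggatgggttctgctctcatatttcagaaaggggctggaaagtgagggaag
Col4a2: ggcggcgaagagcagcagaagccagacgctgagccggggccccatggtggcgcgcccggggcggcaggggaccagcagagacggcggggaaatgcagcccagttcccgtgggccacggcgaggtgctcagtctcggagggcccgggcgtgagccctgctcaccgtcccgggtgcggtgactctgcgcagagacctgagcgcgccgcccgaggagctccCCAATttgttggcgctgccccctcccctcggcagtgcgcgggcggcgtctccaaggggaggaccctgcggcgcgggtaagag
Mmp13: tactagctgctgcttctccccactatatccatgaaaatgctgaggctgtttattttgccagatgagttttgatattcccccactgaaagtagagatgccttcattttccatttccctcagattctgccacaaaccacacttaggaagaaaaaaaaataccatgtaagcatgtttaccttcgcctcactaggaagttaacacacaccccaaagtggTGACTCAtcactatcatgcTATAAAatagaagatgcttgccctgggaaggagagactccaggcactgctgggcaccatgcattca
Timp1: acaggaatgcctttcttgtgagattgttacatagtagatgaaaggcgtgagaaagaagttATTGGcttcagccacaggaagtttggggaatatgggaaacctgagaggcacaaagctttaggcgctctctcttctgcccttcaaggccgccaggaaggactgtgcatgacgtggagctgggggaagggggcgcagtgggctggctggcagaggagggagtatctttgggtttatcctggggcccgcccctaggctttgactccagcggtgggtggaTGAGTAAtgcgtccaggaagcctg
Among all 32851 RefSeq promoter windows of this length, 37.4% hold CCAAT, 13.6% TATAAA, 7.81% TGANTCA and 2.68% TGAGTAA. Among the 29 genes with a window the motifs were found in 13, 7, 2 and 1, and the 2 with TGANTCA are Col6a1 and Mmp13. These are counts of genes with a match in any of their windows. Postn has more than 1 window, so they cannot be set directly against the shares of windows. A match is a string of letters and not evidence of binding.

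Against control, 18 of the 45 matrix genes were called higher in ketogenic livers (40.0%, where 7.47% of all tested genes were called higher) and 17 in high-fat livers (37.8%, against 6.95% of all genes). The counts called lower were 0 of 45 in each comparison, where 4.60% and 5.01% of all genes were lower in ketogenic and in high-fat livers. The log2 fold change was above 0 for 41 of 45 genes in each comparison, called or not, with a median of 0.82 in ketogenic and 0.74 in high-fat livers, where the medians of all tested genes were 0.03 and 0.01. In bulk tissue, fewer cells of a type and less RNA per cell cannot be told apart, and the same holds for more of either. Collagens of fibrils, basement membranes and beaded filaments, the crosslinking enzyme gene Loxl2, and Mmp13, Timp1, Lum, Tagln, Pdgfrb, Thbs1 and Postn were among the genes called. Mmp13 and Timp1 passed the filter only through the ketogenic and high-fat libraries, so they could hardly have been called lower. Both are included in the counts of 18 and 17.

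The groups separated more cleanly after the high-fat diet than after the ketogenic diet. All 5 ketogenic libraries lay above all 4 controls for 8 of 45 genes (17.8%, against 7.38% of all genes), and all 5 high-fat libraries did so for 23 of 45 (51.1%, against 9.45% of all genes). No test of the difference between these counts was run. The counts called ran from 3 to 21 in the ketogenic comparison and from 6 to 18 in the high-fat comparison when 1 library was left out, with the lowest count without control replicate 4 in each. With only the 2 diets compared in a fit, the counts moved apart, to 6 of 44 tested in ketogenic and 24 of 43 tested in high-fat livers. Calls over all genes moved the same way. Those higher were 785 of 14110 in ketogenic and 1413 of 13937 in high-fat livers, in place of 1093 and 1016 of 14627. In that setting the ketogenic calls on Col6a2, Col6a3, Mmp2, Timp1, Lum, Pdgfrb and Thbs1 and on 4 fibrillar collagens were lost (adjusted p from 0.053 to 0.0937), and Mmp13 was filtered out in both comparisons. With library totals in place of TMM, which moved the median of all genes to 0.21 and 0.13, the counts were 21 and 14 genes higher and 0 lower. Over all genes the split was then 1826 higher and 368 lower in ketogenic livers (1093 and 673 with TMM) and 1302 and 420 in high-fat livers (1016 and 733 with TMM).

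**Figure D1:**
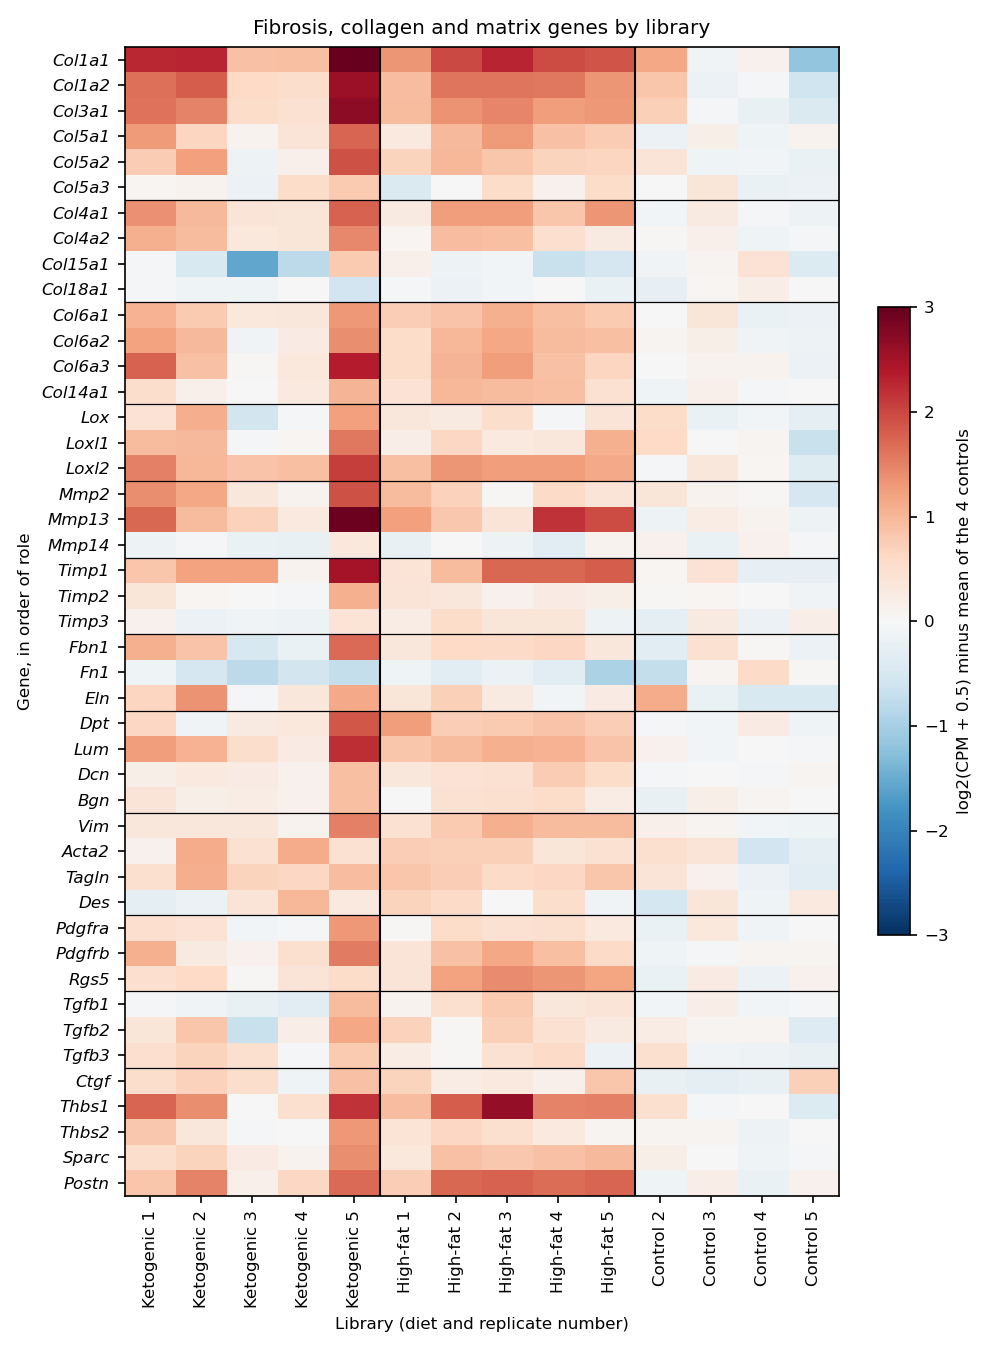
Colour gives log2(CPM + 0.5) of each of the 45 genes (rows, in order of role) in each of the 14 libraries (columns), minus the mean of the 4 controls for that gene; red is higher, blue is lower, and the scale ends at 3 in each direction. Most rows are red in ketogenic replicates 1, 2 and 5 and in high-fat replicates 2 to 5, paler in ketogenic replicates 3 and 4, and strongest in ketogenic replicate 5.

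Fibrillar collagens, the ropes of connective tissue, were called higher in 4 of 6 cases in ketogenic livers and in 1 of 6 in high-fat livers, with median log2 fold changes of 1.30 and 1.07. Col1a1, the alpha 1 chain of type I collagen, had 47.1, 48.1, 17.7, 17.9 and 94.4 CPM in ketogenic livers. In high-fat livers the values were 24.3, 38.6, 47.6, 37.8 and 36.3 CPM, and in control livers 21.7, 8.65, 10.3 and 3.88 CPM. All 5 high-fat libraries and ketogenic replicates 1, 2 and 5 were above every control, while ketogenic replicates 3 and 4 were below control replicate 2. Its log2 fold change was 2.02 ± 0.55 (adjusted p = 0.0299) in ketogenic livers, a call, and 1.73 ± 0.54 (adjusted p = 0.0561) in high-fat livers, which missed the threshold. Col1a2, the partner chain of type I collagen, had 50.2, 56.5, 24.1, 22.8 and 95.01 CPM in ketogenic livers. Its levels were 30.3, 48.8, 49.1, 47.8 and 40.04 CPM in high-fat livers and 28.3, 13.7, 15.2 and 10.2 CPM in control livers. The same libraries stood above all controls, and the gene rose in ketogenic livers, with 1.56 ± 0.41 (adjusted p = 0.0234), and in high-fat livers, with 1.36 ± 0.41 (adjusted p = 0.0445).

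Type III collagen is laid down early beside type I. Its gene Col3a1 had 91.1, 82.1, 42.9, 39.6 and 187 CPM in ketogenic livers. The high-fat libraries had 56.6, 74.1, 81.01, 70.1 and 71.7 CPM and the controls 47.5, 28, 24.9 and 21.1 CPM, with ketogenic replicate 5 highest of all and ketogenic replicates 3 and 4 within the range of the controls. It rose in ketogenic livers, at 1.55 ± 0.40 (adjusted p = 0.0228), and was at 1.22 ± 0.40 (adjusted p = 0.0626) in high-fat livers, not a call although all 5 libraries lay above the controls. Type V collagen nucleates fibrils, and its gene Col5a1 had 14.98, 9.56, 6.33, 7.81 and 20.9 CPM in ketogenic livers. Values were 7.34, 12.1, 15.1, 11.3 and 10.2 CPM in high-fat livers, against 5.15, 6.77, 5.38 and 6.39 CPM in control livers. In ketogenic livers Col5a1 rose by 1.01 ± 0.30 (adjusted p = 0.0408), with replicate 3 inside the control range, and in high-fat livers it was at 0.92 ± 0.30 (adjusted p = 0.0613). The second type V chain, Col5a2, lay at 3.12 to 14.7 CPM in ketogenic livers, 5.77 to 7.52 CPM in high-fat livers and 3.03 to 4.81 CPM in control livers, with 1.05 ± 0.35 (adjusted p = 0.0655) and 0.83 ± 0.35 (adjusted p = 0.145); the third, Col5a3, lay at 27.02 to 52.9 CPM in ketogenic livers, 22.4 to 45.01 CPM in high-fat livers and 26.3 to 39.5 CPM in control livers, with 0.30 ± 0.22 (adjusted p = 0.411) and 0.19 ± 0.22 (adjusted p = 0.632). Neither was called in either comparison.

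With only the 2 diets compared in a fit, the fibrillar counts turned round, to 0 of 6 in ketogenic and 5 of 6 in high-fat livers. High-fat values of Col1a1, Col1a2, Col3a1, Col5a1 and Col5a2 passed (adjusted p from 0.00248 to 0.0287), and in ketogenic livers none did, with adjusted p from 0.0691 to 0.0894 for Col1a1, Col1a2, Col3a1 and Col5a1. These fibrillar calls also depended on single libraries. In ketogenic livers those on Col1a2 and Col3a1 ended when control replicate 3, 4 or 5 was left out (adjusted p from 0.0673 to 0.076), and that on Col1a1 without these or ketogenic replicate 1, 2 or 5 (adjusted p from 0.0532 to 0.0873). That on Col5a1 ended without any control or ketogenic replicate 1 or 5 (adjusted p from 0.0708 to 0.111). For Col1a2 in high-fat livers the call ended without any of control replicates 3 to 5 or high-fat replicates 2 to 5 (adjusted p from 0.0729 to 0.119). Library totals gave it an adjusted p of 0.0505. In the other direction, the high-fat difference of Col1a1 passed without control replicate 2 or without high-fat replicate 1 (adjusted p = 0.0223 and 0.0496). That of Col3a1 passed without control replicate 2 (adjusted p = 0.0378) and that of Col5a1 without high-fat replicate 1 (adjusted p = 0.0342). The ketogenic difference of Col5a2 passed without ketogenic replicate 3 or 4 (adjusted p = 0.0149 and 0.0319). DESeq2 called Col1a1, Col3a1 and Col5a1 in high-fat livers (adjusted p = 0.0158, 0.00855 and 0.0231).

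**Figure D2:**
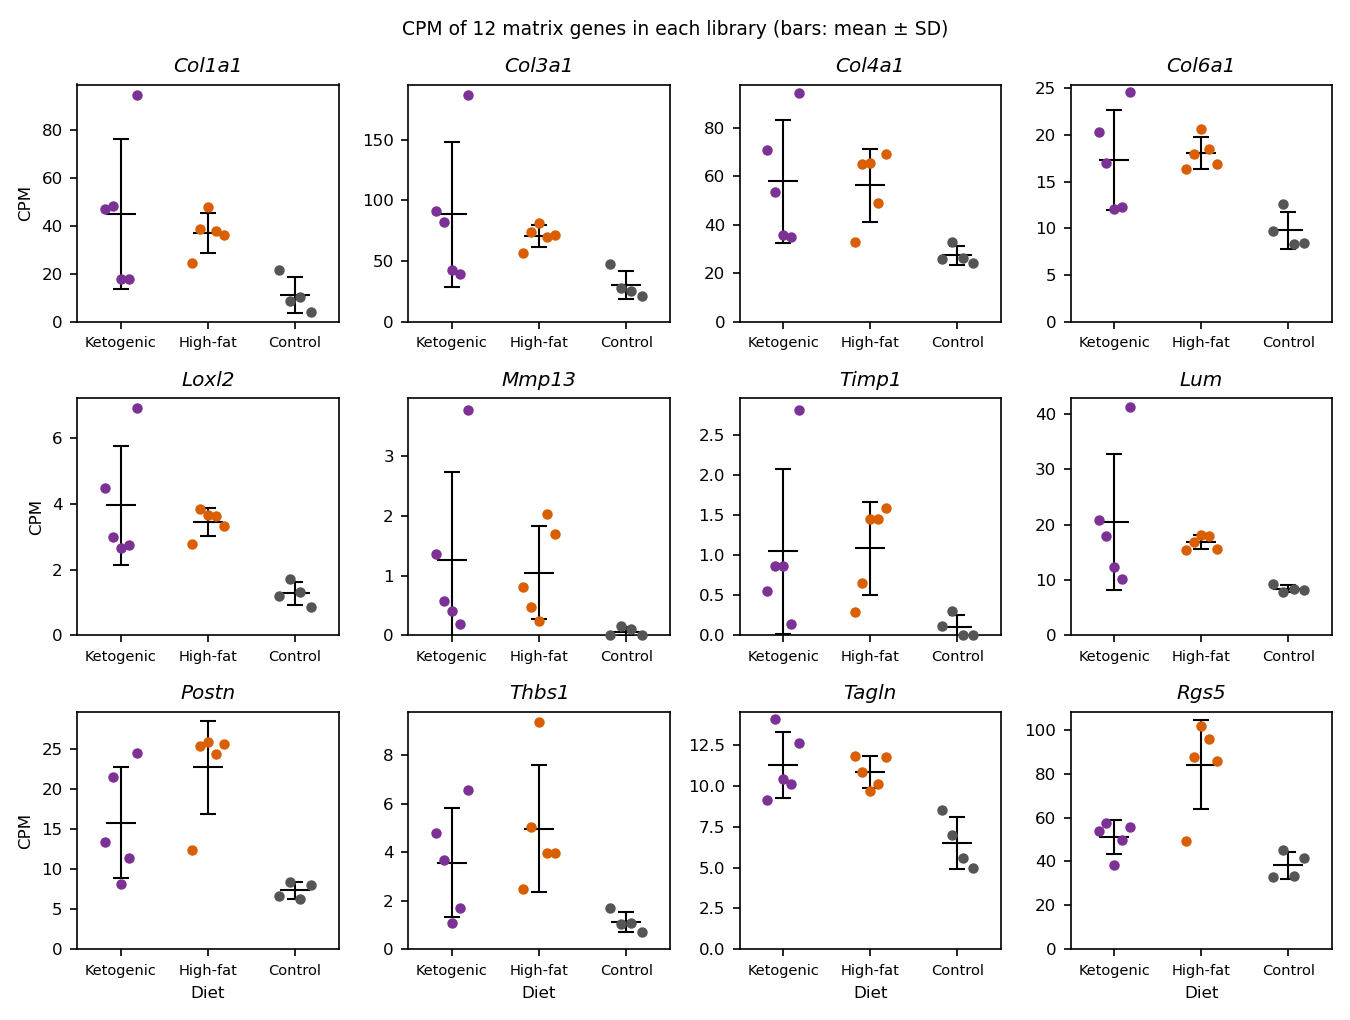
Points are the CPM of 12 of the 45 genes in single libraries (5 ketogenic, 5 high-fat and 4 control), and bars are the mean ± SD of each diet; every panel has its own axis from 0. Ketogenic replicate 5, the rightmost ketogenic point, reaches 94.4 CPM for Col1a1 and 187 CPM for Col3a1, while the high-fat points of both genes lie close together and above all controls.

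Basement membrane collagens split into a pair that was higher and a pair that was not. Col4a1 and Col4a2, the chains of the type IV network under endothelium and around bile ducts, lie head to head on chromosome 8 and share the promoter window shown above. Col4a1 had 70.96, 53.8, 35.7, 34.8 and 94.5 CPM in ketogenic livers. After the high-fat diet they were 33.1, 65.2, 65.5, 48.95 and 69.1 CPM, and in control livers 25.9, 32.9, 26.5 and 24.2 CPM, and the lowest ketogenic and high-fat libraries were still above the highest control. Col4a1 rose by 1.08 ± 0.29 (adjusted p = 0.0228) in ketogenic livers and by 1.04 ± 0.29 (adjusted p = 0.0286) in high-fat livers. Col4a2 had 38.5, 35.3, 22.8, 23.6 and 50.2 CPM in ketogenic livers. High-fat livers had 18.8, 34.7, 34.5, 25.8 and 22.03 CPM and control livers 18.6, 20.1, 16.5 and 17.5 CPM, again with all 5 ketogenic libraries above the controls but with high-fat replicate 1 inside their range. It rose by 0.91 ± 0.23 (adjusted p = 0.0178) in ketogenic livers and was at 0.58 ± 0.23 (adjusted p = 0.114) in high-fat livers. The high-fat value of Col4a2 passed in an edgeR fit of only high-fat and control livers (adjusted p = 0.0356). Col15a1 lay at 3.01 to 17.4 CPM in ketogenic livers, 6.07 to 11.1 CPM in high-fat livers and 7.31 to 13.6 CPM in control livers and Col18a1, the endostatin precursor gene, at 722 to 1078 CPM in ketogenic livers, 924 to 1072 CPM in high-fat livers and 898 to 1216 CPM in control livers. Neither was called in any comparison with control, at -0.25 ± 0.37 and -0.27 ± 0.37 for Col15a1 and -0.16 ± 0.13 and -0.11 ± 0.13 for Col18a1 in ketogenic and high-fat livers; with library totals the Col18a1 values were 0.00 and 0.02.

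In ketogenic livers the Col4a2 call ended without control replicate 4 or 5 (adjusted p = 0.0626 and 0.0525), and the Col4a1 call without control replicate 2, 4 or 5 or ketogenic replicate 1 (adjusted p from 0.0505 to 0.0715). In high-fat livers the call on Col4a1 ended without control replicate 2, 4 or 5 or high-fat replicate 2, 3 or 5 (adjusted p from 0.0614 to 0.082).

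The chains of type VI collagen, which forms beaded filaments between cells and fibrils, were called higher in 3 of 3 cases in ketogenic and in 2 of 3 in high-fat livers. Col6a1 had 20.4, 17.1, 12.1, 12.3 and 24.6 CPM in ketogenic livers. In high-fat livers the values were 16.4, 17.9, 20.7, 18.5 and 16.9 CPM, and in control livers 9.73, 12.6, 8.297 and 8.45 CPM, and high-fat libraries all lay above the controls while ketogenic replicates 3 and 4 lay just under control replicate 3. It rose by 0.82 ± 0.20 (adjusted p = 0.0134) in ketogenic livers and by 0.89 ± 0.20 (adjusted p = 0.0097) in high-fat livers. Its neighbour on chromosome 10, Col6a2, had 14.7, 12.6, 5.67, 7.396 and 17.1 CPM in ketogenic livers. Its levels were 9.19, 12.7, 14.4, 12.3 and 11.8 CPM in high-fat livers and 6.56, 6.97, 5.63 and 5.48 CPM in control livers. Only ketogenic replicate 3 was inside the control range for Col6a2, which rose by 0.90 ± 0.26 (adjusted p = 0.0358) in ketogenic and by 0.97 ± 0.26 (adjusted p = 0.0262) in high-fat livers. Col6a3 had 31.9, 17.1, 9.35, 11.4 and 48.2 CPM in ketogenic livers. The high-fat libraries had 13.4, 18.8, 22.4, 17.04 and 14.5 CPM and the controls 8.99, 9.72, 9.68 and 7.88 CPM, with ketogenic replicates 1 and 5 far above the other 3, and rose by 1.38 ± 0.40 (adjusted p = 0.0387) in ketogenic livers. In high-fat livers Col6a3 was at 0.93 ± 0.40 (adjusted p = 0.151) and missed the threshold, with all 5 libraries above the controls. With only the high-fat and control diets in an edgeR fit, Col6a3 passed (adjusted p = 0.00159). Col14a1, a collagen that sits on fibril surfaces, had 74.1, 57.7, 50.7, 63.3 and 106 CPM in ketogenic livers. Values were 69.2, 103, 99.7, 97.2 and 70.3 CPM in high-fat livers, against 46.7, 57.7, 50.6 and 51.5 CPM in control livers. It rose in high-fat livers, by 0.77 ± 0.19 (adjusted p = 0.0173), and was at 0.45 ± 0.19 (adjusted p = 0.139) in ketogenic livers.

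For Col6a1 the high-fat call held in all 9 fits without 1 library, and its ketogenic call was lost without control replicate 4 (adjusted p = 0.0547), as was the high-fat call on Col14a1 (adjusted p = 0.055). In ketogenic livers the calls on Col6a2 and Col6a3 were lost without any 1 control, ketogenic replicate 1 or 5 or, for Col6a2, replicate 2 (adjusted p from 0.0566 to 0.104). In high-fat livers Col6a2 was no longer called without control replicate 4 or 5 or high-fat replicate 2, 3 or 4 (adjusted p from 0.0515 to 0.0834).

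Crosslinking was represented by 3 lysyl oxidase genes, of which 1 was called. Loxl2, which oxidises lysines of collagen, had 4.499, 2.995, 2.66, 2.76 and 6.92 CPM in ketogenic livers. After the high-fat diet they were 2.77, 3.85, 3.67, 3.64 and 3.33 CPM, and in control livers 1.19, 1.73, 1.33 and 0.857 CPM. The highest control lay under the lowest library of both other diets, and Loxl2 rose by 1.63 ± 0.30 (adjusted p = 0.00228) in ketogenic and by 1.43 ± 0.30 (adjusted p = 0.00674) in high-fat livers, calls that held in every setting tried. Lox lay at 0.0511 to 1.39 CPM in ketogenic livers, 0.283 to 0.658 CPM in high-fat livers and 0.171 to 0.679 CPM in control livers, with 1.12 ± 0.65 (adjusted p = 0.281) and 0.59 ± 0.67 (adjusted p = 0.61), and Loxl1 at 1.48 to 5.67 CPM in ketogenic livers, 1.85 to 3.83 CPM in high-fat livers and 0.799 to 2.602 CPM in control livers, with 0.94 ± 0.40 (adjusted p = 0.141) and 0.59 ± 0.40 (adjusted p = 0.367). Lox was counted at under 2 CPM in every library and its SE is wide.

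Enzymes that cut matrix and their inhibitors moved unequally. Mmp13, the main interstitial collagenase of rodents, had 1.358, 0.5796, 0.409, 0.184 and 3.77 CPM in ketogenic livers. High-fat livers had 0.809, 0.474, 0.235, 2.02 and 1.69 CPM and control livers 0, 0.153, 0.102 and 0 CPM. These values rest on 159 counts over the ketogenic, 111 over the high-fat and 5 over the control libraries. Every ketogenic and high-fat library was above the highest control, and Mmp13 rose by 4.15 ± 1.10 (adjusted p = 0.0231) in ketogenic and by 3.87 ± 1.12 (adjusted p = 0.0354) in high-fat livers. Timp1, the inducible inhibitor of metalloproteinases, had 0.552, 0.869, 0.868, 0.138 and 2.82 CPM in ketogenic livers. In high-fat livers the values were 0.289, 0.652, 1.46, 1.46 and 1.59 CPM, and in control livers 0.113, 0.305, 0 and 0 CPM, from 128, 115 and 8 counts. Control replicate 3 lay above the lowest library of each other diet, and Timp1 rose by 3.25 ± 0.94 (adjusted p = 0.034) in ketogenic and by 3.30 ± 0.94 (adjusted p = 0.0332) in high-fat livers. Mmp13 and Timp1 had under 10 counts in every control library and passed the low-count filter only through the other diets. A call on either could hardly have been lower.

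Mmp2, the gelatinase of mesenchymal cells, had 7.98, 6.76, 3.63, 2.99 and 11.7 CPM in ketogenic livers. Its levels were 5.72, 4.74, 2.82, 4.29 and 3.73 CPM in high-fat livers and 3.68, 3.003, 2.82 and 1.77 CPM in control livers. It rose in ketogenic livers, by 1.23 ± 0.36 (adjusted p = 0.0346), with replicates 1, 2 and 5 above the controls and replicates 3 and 4 among them, and was at 0.59 ± 0.36 (adjusted p = 0.302) in high-fat livers. Mmp14, the membrane enzyme that activates the Mmp2 product, lay at 35.7 to 52.3 CPM in ketogenic livers, 32.7 to 44.7 CPM in high-fat livers and 36.1 to 45.8 CPM in control livers, with -0.05 ± 0.13 (adjusted p = 0.835) and -0.13 ± 0.13 (adjusted p = 0.567), signs that turn with library totals (0.14 and 0.00). Timp2 lay at 17.6 to 38.4 CPM in ketogenic livers, 19.7 to 23.99 CPM in high-fat livers and 16.9 to 18.9 CPM in control livers, with 0.36 ± 0.19 (adjusted p = 0.236) and 0.26 ± 0.19 (adjusted p = 0.395), and Timp3 at 38.8 to 58.4 CPM in ketogenic livers, 39.1 to 63.9 CPM in high-fat livers and 35.5 to 52.8 CPM in control livers, with 0.02 ± 0.16 (adjusted p = 0.948) and 0.27 ± 0.17 (adjusted p = 0.302). None of these last 3 genes was called in a comparison with control.

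Few counts stand behind Mmp13 and Timp1, and their values moved most with single libraries. Without control replicate 3 the log2 fold changes were 4.92 and 4.64 in ketogenic and 4.65 and 4.69 in high-fat livers, and without ketogenic replicate 5 the ketogenic ones were 3.13 and 2.41. Mmp13 was no longer called without control replicate 2, 4 or 5 in ketogenic livers (adjusted p from 0.0538 to 0.0709) and without any control or high-fat replicate 4 or 5 in high-fat livers (adjusted p from 0.0596 to 0.0893). The Timp1 call was lost without control replicate 2, 4 or 5 in either comparison, without ketogenic replicate 5 and without high-fat replicate 3, 4 or 5 (adjusted p from 0.0632 to 0.101). That on Mmp2 was lost without control replicate 3, 4 or 5 or ketogenic replicate 1, 2 or 5 (adjusted p from 0.0599 to 0.112).

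**Figure D3:**
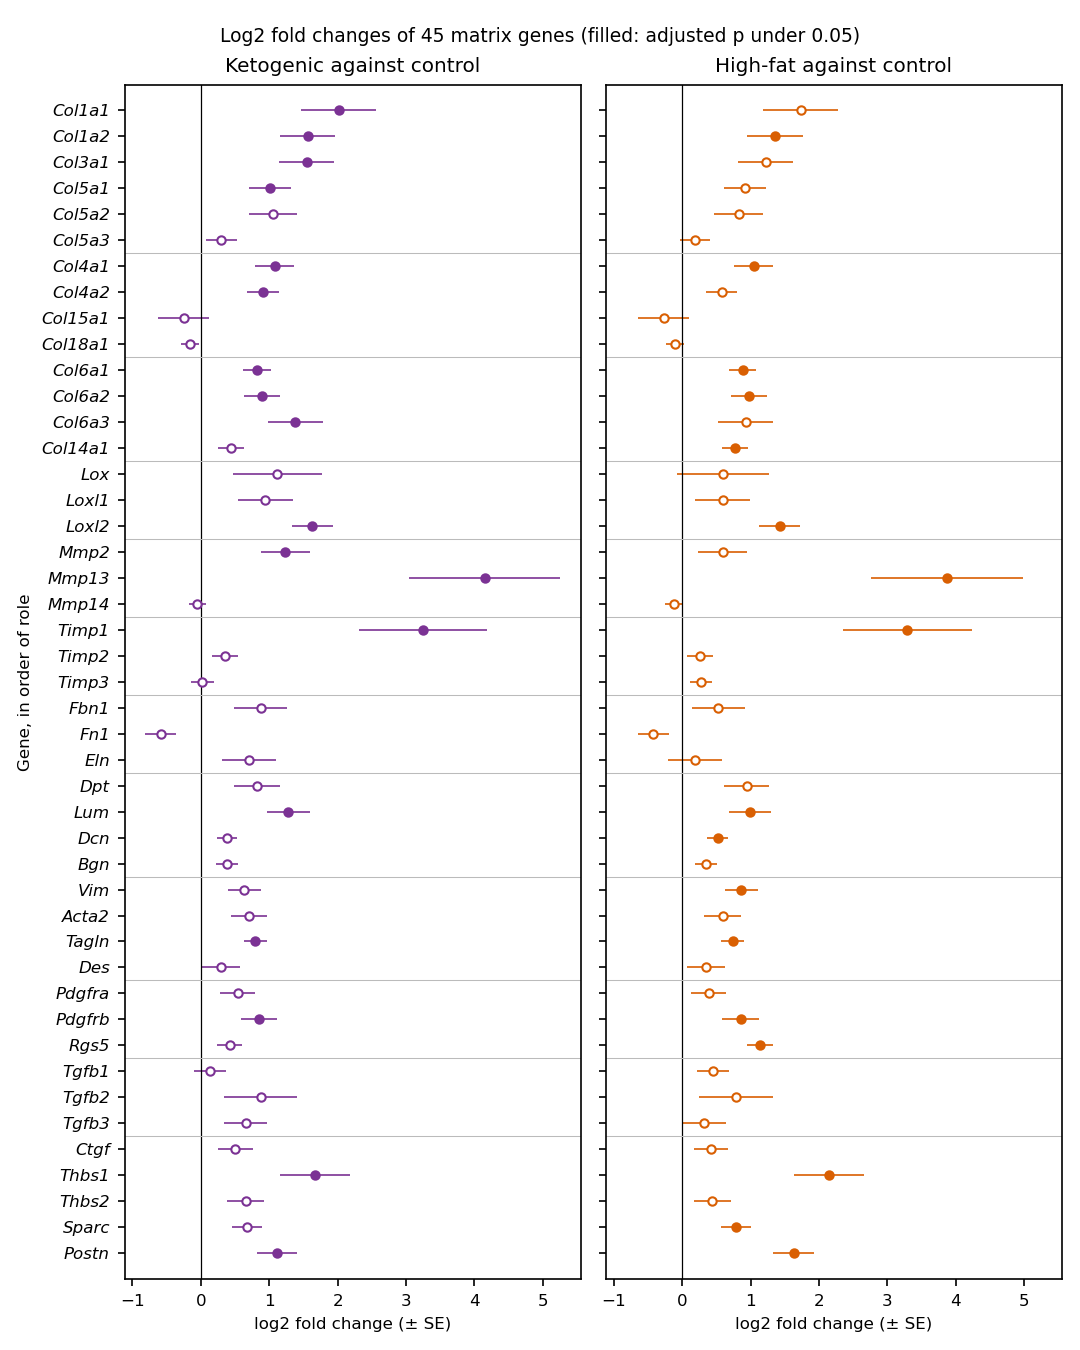
Points are log2 fold changes of the 45 genes over control, ketogenic on the left and high-fat on the right, with bars of 1 SE; filled points have an adjusted p under 0.05 in edgeR's quasi-likelihood test. Both panels have 41 of 45 points right of 0, and Mmp13 and Timp1 lie farthest out with the widest bars.

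Glycoproteins of elastic fibres and cell adhesion held no call. Fn1, fibronectin, which hepatocytes also secrete into plasma, had 1875, 1445, 1174, 1397 and 1237 CPM in ketogenic livers. The high-fat libraries had 1859, 1641, 1793, 1627 and 1050 CPM and the controls 1246, 2168, 3057 and 2091 CPM. Control replicate 2 was inside the range of the other diets and the other 3 controls above it, and Fn1 was at -0.59 ± 0.23 (adjusted p = 0.105) in ketogenic and -0.43 ± 0.23 (adjusted p = 0.241) in high-fat livers. Without control replicate 2 the ketogenic value was called lower (adjusted p = 0.0226). The fibrillin gene Fbn1 lay at 1.84 to 10.1 CPM in ketogenic livers, 3.63 to 4.49 CPM in high-fat livers and 2.09 to 4.02 CPM in control livers, with 0.88 ± 0.39 (adjusted p = 0.157) and 0.53 ± 0.39 (adjusted p = 0.407), and passed in ketogenic livers without ketogenic replicate 3 (adjusted p = 0.0388). The elastin gene Eln lay at 2.35 to 7.05 CPM in ketogenic livers, 2.27 to 4.33 CPM in high-fat livers and 1.64 to 5.83 CPM in control livers, with 0.70 ± 0.39 (adjusted p = 0.259) and 0.18 ± 0.39 (adjusted p = 0.807), and passed in ketogenic livers without control replicate 2 (adjusted p = 0.0188), whose level of 5.83 CPM was more than any high-fat library had.

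Small leucine-rich proteoglycans coat fibrils and bind growth factors. Lum, lumican, had 20.8, 17.9, 12.3, 10.1 and 41.1 CPM in ketogenic livers. Values were 15.5, 16.8, 18.1, 17.98 and 15.7 CPM in high-fat livers, against 9.33, 7.89, 8.45 and 8.11 CPM in control livers, and the 4 controls lay under every other library. It rose by 1.28 ± 0.31 (adjusted p = 0.0143) in ketogenic and by 0.99 ± 0.31 (adjusted p = 0.0488) in high-fat livers. The ketogenic call on Lum held in all 9 fits without 1 library, whereas its high-fat call was lost in all 9 (adjusted p from 0.0533 to 0.115). Library totals gave it an adjusted p of 0.0619. Dcn, decorin, on the same stretch of chromosome 10 with no protein-coding gene between, had 167, 179.9, 173, 162 and 275 CPM in ketogenic livers. After the high-fat diet they were 187, 198, 201, 249 and 217 CPM, and in control livers 144, 146, 142 and 156 CPM. Again no library of the other diets reached down to the controls, and Dcn rose in high-fat livers, by 0.52 ± 0.15 (adjusted p = 0.0336), and was at 0.38 ± 0.15 (adjusted p = 0.107) in ketogenic livers. The Dcn call was lost without any control or high-fat replicate 2, 3, 4 or 5 (adjusted p from 0.05 to 0.0952). Library totals let the ketogenic value of Dcn pass (adjusted p = 0.0476). Bgn, biglycan, lay at 103 to 175 CPM in ketogenic livers, 94.9 to 138 CPM in high-fat livers and 80.4 to 106 CPM in control livers, with 0.38 ± 0.16 (adjusted p = 0.132) and 0.35 ± 0.16 (adjusted p = 0.166). Dpt, dermatopontin, which binds decorin, lay at 5.12 to 21.7 CPM in ketogenic livers, 9.65 to 14.1 CPM in high-fat livers and 5.08 to 6.76 CPM in control livers, with 0.82 ± 0.33 (adjusted p = 0.124) and 0.94 ± 0.34 (adjusted p = 0.0807), and DESeq2 called it in high-fat livers (adjusted p = 0.0355).

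Of 4 cytoskeletal and contractile genes, Tagln was called in both comparisons. Tagln, transgelin, an actin-binding protein of smooth muscle and myofibroblasts, had 9.12, 14.1, 10.4, 10.2 and 12.6 CPM in ketogenic livers. High-fat livers had 11.8, 10.9, 9.68, 10.2 and 11.8 CPM and control livers 8.54, 6.97, 5.58 and 4.97 CPM. No overlap was present between controls and either diet, and Tagln rose by 0.79 ± 0.17 (adjusted p = 0.00618) in ketogenic and by 0.74 ± 0.17 (adjusted p = 0.0107) in high-fat livers, in every setting tried. Acta2, the smooth muscle actin by which myofibroblasts are recognised, had 4.12, 8.598, 5.21, 8.499 and 5.24 CPM in ketogenic livers. In high-fat livers the values were 6.47, 6.34, 6.34, 4.86 and 5.27 CPM, and in control livers 5.32, 4.94, 2.31 and 2.97 CPM. The groups overlapped, and it was at 0.70 ± 0.27 (adjusted p = 0.0985) in ketogenic and 0.59 ± 0.27 (adjusted p = 0.165) in high-fat livers, not a call. Vim, vimentin, the intermediate filament of mesenchymal cells and leukocytes, had 34.8, 34.7, 34.5, 29.3 and 78.9 CPM in ketogenic livers. Its levels were 37.6, 47.04, 57.5, 53.2 and 53.02 CPM in high-fat livers and 30.1, 28.9, 25.7 and 24.7 CPM in control livers. It rose in high-fat livers, by 0.86 ± 0.24 (adjusted p = 0.0319), a call lost without control replicate 3, 4 or 5 or high-fat replicate 2, 3, 4 or 5 (adjusted p from 0.0523 to 0.0923). In ketogenic livers Vim was at 0.64 ± 0.24 (adjusted p = 0.1), with replicate 5 far above the others and replicate 4 inside the control range. Des, desmin, a marker of rodent stellate cells, lay at 6.24 to 15.7 CPM in ketogenic livers, 7.06 to 12.4 CPM in high-fat livers and 5.09 to 9.98 CPM in control livers, with 0.29 ± 0.28 (adjusted p = 0.518) and 0.34 ± 0.28 (adjusted p = 0.45).

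Receptors of PDGF and a pericyte gene followed. Pdgfrb, the receptor through which PDGF drives stellate cells, had 12.9, 7.29, 6.49, 8.45 and 18.3 CPM in ketogenic livers. The high-fat libraries had 7.92, 11.4, 13.8, 11.5 and 9.102 CPM and the controls 5.37, 5.803, 6.3 and 6.28 CPM. All ketogenic and high-fat libraries were above all controls, and Pdgfrb rose by 0.85 ± 0.27 (adjusted p = 0.0487) in ketogenic and by 0.86 ± 0.27 (adjusted p = 0.049) in high-fat livers, both just under the threshold. Leaving out any 1 control, ketogenic replicate 1 or 5, or high-fat replicate 2, 3, 4 or 5 ended these calls (adjusted p from 0.0651 to 0.108), as did library totals in the high-fat comparison (adjusted p = 0.065). Rgs5, a regulator of G protein signalling in pericytes, had 53.8, 57.7, 38.5, 49.98 and 55.8 CPM in ketogenic livers. Values were 49.4, 87.9, 102, 95.9 and 86 CPM in high-fat livers, against 32.8, 45.05, 33.2 and 41.6 CPM in control livers. High-fat replicates 2 to 5 stood above every other library, and Rgs5 rose in high-fat livers, by 1.14 ± 0.19 (adjusted p = 0.00122), in every setting tried. In ketogenic livers Rgs5 was at 0.42 ± 0.18 (adjusted p = 0.147). Pdgfra, the receptor of portal fibroblasts, lay at 5.26 to 14.6 CPM in ketogenic livers, 5.78 to 8.41 CPM in high-fat livers and 4.86 to 7.18 CPM in control livers, with 0.54 ± 0.26 (adjusted p = 0.185) and 0.38 ± 0.26 (adjusted p = 0.354).

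The ligands of TGF-beta were not called in either comparison with control. Tgfb1 had 11.1, 10.6, 9.704, 8.91 and 22.4 CPM in ketogenic livers. After the high-fat diet they were 12.3, 16.2, 19.97, 14.6 and 15.02 CPM, and in control livers 10.8, 13.1, 10.8 and 11.2 CPM. Ketogenic replicate 5 was the highest library and the other 4 ketogenic libraries lay under or among the controls, which gave 0.13 ± 0.23 (adjusted p = 0.743), or -0.21 without that library. In high-fat livers Tgfb1 was at 0.45 ± 0.23 (adjusted p = 0.228), with 4 of 5 libraries above the controls. In an edgeR fit of only high-fat and control livers Tgfb1 passed (adjusted p = 0.0456). Tgfb2 lay at 0.102 to 1.65 CPM in ketogenic livers, 0.474 to 1.08 CPM in high-fat livers and 0.228 to 0.622 CPM in control livers, with 0.88 ± 0.54 (adjusted p = 0.304) and 0.78 ± 0.54 (adjusted p = 0.37). Tgfb3 lay at 0.965 to 2.12 CPM in ketogenic livers, 0.846 to 1.78 CPM in high-fat livers and 0.799 to 1.64 CPM in control livers, with 0.66 ± 0.31 (adjusted p = 0.183) and 0.32 ± 0.32 (adjusted p = 0.546).

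Matricellular proteins, secreted regulators that bind matrix and cells without bearing load, held some of the larger differences. Thbs1, thrombospondin 1, which activates latent TGF-beta, had 4.796, 3.67, 1.07, 1.7 and 6.55 CPM in ketogenic livers. High-fat livers had 2.49, 5.04, 9.35, 3.97 and 3.98 CPM and control livers 1.697, 1.02, 1.08 and 0.685 CPM. High-fat libraries all exceeded the controls, ketogenic replicate 3 did not, and Thbs1 rose by 1.67 ± 0.51 (adjusted p = 0.0439) in ketogenic and by 2.15 ± 0.51 (adjusted p = 0.0143) in high-fat livers. Postn, periostin, which binds collagen and integrins, had 13.4, 21.4, 8.17, 11.4 and 24.5 CPM in ketogenic livers. In high-fat livers the values were 12.4, 25.3, 25.9, 24.3 and 25.6 CPM, and in control livers 6.62, 8.35, 6.25 and 8.05 CPM. High-fat replicates 2 to 5 lay close together and above ketogenic replicates 1 to 4, high-fat replicate 1 lay lower, and Postn rose by 1.11 ± 0.30 (adjusted p = 0.0236) in ketogenic and by 1.63 ± 0.30 (adjusted p = 0.00302) in high-fat livers. Sparc, a collagen-binding glycoprotein, had 66.2, 72.5, 53.9, 49.3 and 122 CPM in ketogenic livers. Its levels were 56.8, 84.3, 79.9, 84.1 and 89.9 CPM in high-fat livers and 51.9, 45.05, 41.5 and 44.6 CPM in control livers. It rose in high-fat livers, by 0.79 ± 0.22 (adjusted p = 0.0297), and at 0.67 ± 0.22 (adjusted p = 0.0594) missed the threshold in ketogenic livers. Ctgf (also written Ccn2), a TGF-beta target, lay at 5.61 to 11.7 CPM in ketogenic livers, 6.88 to 11.3 CPM in high-fat livers and 4.99 to 10.4 CPM in control livers, with 0.51 ± 0.25 (adjusted p = 0.203) and 0.42 ± 0.25 (adjusted p = 0.295), and passed in ketogenic livers without control replicate 5 (adjusted p = 0.0388). Thbs2 lay at 2.76 to 7.69 CPM in ketogenic livers, 3.03 to 4.62 CPM in high-fat livers and 2.51 to 3.05 CPM in control livers, with 0.66 ± 0.27 (adjusted p = 0.128) and 0.44 ± 0.27 (adjusted p = 0.314).

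The high-fat calls on Thbs1 and Postn held in all 9 fits without 1 library. In ketogenic livers that on Thbs1 was lost without control replicate 3, 4 or 5 or ketogenic replicate 1, 2 or 5 (adjusted p from 0.0712 to 0.126). That on Postn was lost without control replicate 2, 4 or 5 or ketogenic replicate 2 (adjusted p from 0.0521 to 0.0796). Sparc was no longer called in high-fat livers without any of control replicates 3 to 5 or high-fat replicates 2 to 5 (adjusted p from 0.0537 to 0.0935). The ketogenic value of Sparc passed without ketogenic replicate 3 or 4 (adjusted p = 0.0325 and 0.0262), with DESeq2 (adjusted p = 0.0312) and with library totals (adjusted p = 0.0437).

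Ketogenic and high-fat livers were then compared with each other. None of the 45 genes was called higher or lower, where 0.00684% of all genes were higher and 0.0547% lower, 9 genes in all. At an unadjusted p under 0.05 there was 1 of 45 genes, against 1273 of all 14627, and DESeq2 called 1 of 45. That gene was Rgs5, at 51.1 ± 7.61 CPM in ketogenic and 84.2 ± 20.4 CPM in high-fat livers (SD, n = 5 each), with a log2 fold change of -0.72 ± 0.17 (adjusted p = 0.143) in edgeR's test and an adjusted p of 0.0124 in DESeq2. No gene of the 45 had groups without overlap in either direction, where 0.875% of all genes lay wholly higher and 0.889% wholly lower in ketogenic livers. Values for other genes ran from -0.52 ± 0.27 (adjusted p = 0.619) for Postn to 0.64 ± 0.32 (adjusted p = 0.609) for Mmp2. Col1a1 was at 0.29 ± 0.48 (adjusted p = 0.947), Col3a1 at 0.33 ± 0.36 (adjusted p = 0.897), Vim at -0.23 ± 0.22 (adjusted p = 0.872) and Tgfb1 at -0.31 ± 0.22 (adjusted p = 0.752), each within 2 SE of 0. A p above the threshold does not show that the diets act alike.

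Leaving out ketogenic replicate 5 moved the counts and the median of this comparison more than leaving out any other ketogenic or high-fat library. The median log2 fold change of the 45 genes, ketogenic over high-fat, was 0.08 with it and -0.17 without it, and 28 of 45 values were above 0 with it but 10 of 45 without it, with Col1a1 at -0.18 and Col3a1 at -0.15. Over all genes the medians were 0.02 and -0.001, and 54.2% of values were above 0 with that library. The share over all genes without it was not worked out. Without it, 3 genes were called lower in ketogenic livers, namely Vim (-0.58 ± 0.12, adjusted p = 0.0211), Tgfb1 (-0.63 ± 0.13, adjusted p = 0.0211) and Rgs5 (-0.75 ± 0.18, adjusted p = 0.0456), and 315 of all genes were called in place of 9. Without high-fat replicate 1, Rgs5 was also called lower (-0.86 ± 0.13, adjusted p = 0.0279).

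The 5 ketogenic libraries differed among themselves more than those of the other groups. Over the 45 genes the median coefficient of variation was 44.6% in ketogenic, 18.9% in high-fat and 19.7% in control livers; no test of this difference was run. Ketogenic replicate 5 was the highest of its group for 38 of 45 genes and the highest of all 14 libraries for 35. Ketogenic replicates 3 and 4 were among the 2 lowest of their group for 38 and 37 genes. The number of genes above all 4 controls was 33, 33, 14, 19 and 41 in ketogenic replicates 1 to 5, and 28, 35, 34, 35 and 32 in high-fat replicates 1 to 5. These counts and coefficients were not worked out over all tested genes. Whether they are particular to the matrix genes or hold for the whole library was not tested. Without ketogenic replicate 5, 10 of 45 genes were called higher in ketogenic livers against control, where 1043 of all 14400 genes were called higher. The median log2 fold change of the 45 was then 0.55 with 39 of 45 above 0, where the median of all genes was -0.02. The 10 genes called were Col1a2, Col3a1, Col4a1, Col4a2, Col6a1, Loxl2, Mmp13, Lum, Tagln and Postn.

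**Figure D4:**
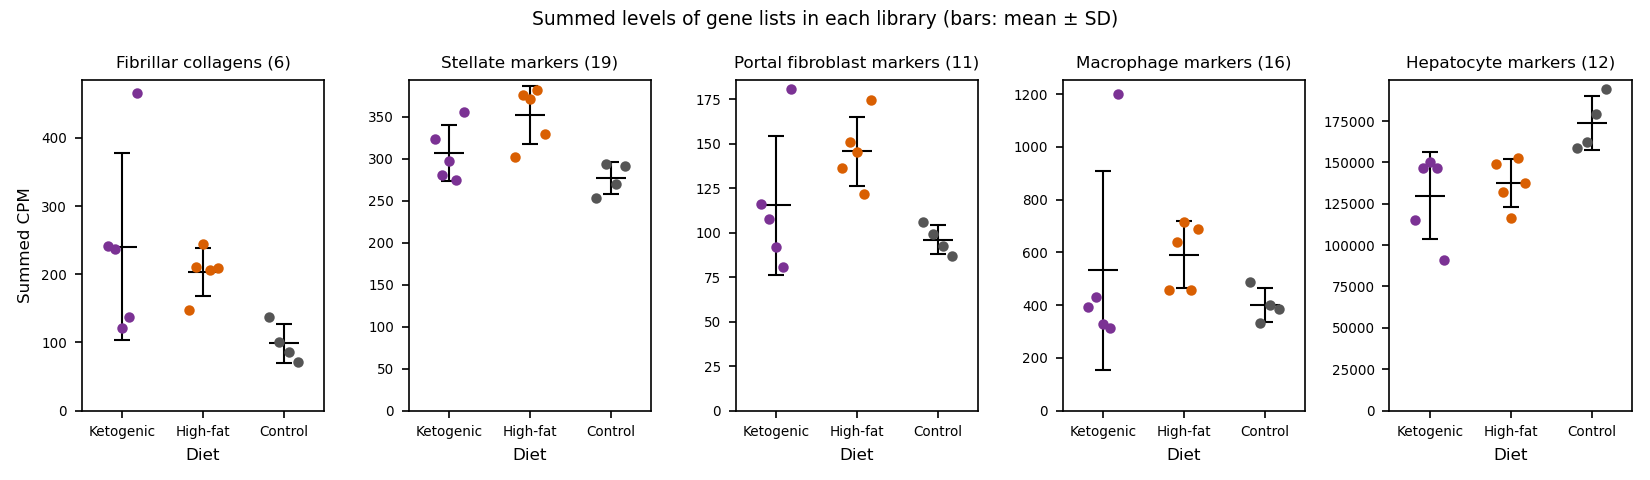
Points are summed CPM of a gene list in each library, with the mean ± SD of each diet, for the 6 fibrillar collagens and for markers of stellate cells, portal fibroblasts, macrophages and hepatocytes; each panel has its own axis from 0. Ketogenic replicate 5 has the highest sum of fibrillar collagens (465 CPM) and of macrophage markers (1201 CPM) and the lowest of hepatocyte markers (90750 CPM).

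Markers of other cells were set beside these levels. For the calls in every marker list, the shares over all tested genes were 7.47% higher and 4.60% lower in ketogenic livers. In high-fat livers these shares were 6.95% and 5.01%. The 6 fibrillar collagens summed to 242, 238, 121, 137 and 465 CPM in ketogenic, 147, 211, 244, 206 and 209 CPM in high-fat and 138, 99.9, 85.4 and 71.7 CPM in control livers. The 16 macrophage markers summed to 313 to 430 CPM in ketogenic replicates 1 to 4 and 1201 CPM in replicate 5, to 456 to 715 CPM in high-fat livers and to 332 to 488 CPM in control livers, with none of the 16 at 0 in all libraries. Of these markers 2 rose and 1 fell in ketogenic livers and 1 rose in high-fat livers. Gpnmb, of lipid-loaded macrophages, averaged 38.5 ± 47.3 CPM in ketogenic, 18.2 ± 4.64 CPM in high-fat and 1.25 ± 0.73 CPM in control livers, with log2 fold changes over control of 4.95 ± 0.92 (adjusted p = 0.00438) and 3.86 ± 0.89 (adjusted p = 0.0163). Trem2, a receptor of the same cells, rose by 2.66 ± 0.71 (adjusted p = 0.0262) and Timd4, of resident Kupffer cells, was lower in ketogenic livers, with a log2 fold change of -1.71 ± 0.52 (adjusted p = 0.0454). In high-fat livers Gpnmb missed the threshold when control replicate 3, 4 or 5 was left out (adjusted p from 0.0503 to 0.0552), and so did Trem2 in ketogenic livers (adjusted p from 0.0725 to 0.0802). The call on Timd4 ended without any 1 library but ketogenic replicate 5 (adjusted p from 0.0588 to 0.0953). The part of macrophages in the matrix levels was not tested.

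The 12 hepatocyte markers summed to 90750 to 150200 CPM in ketogenic, 116400 to 152600 CPM in high-fat and 158600 to 194600 CPM in control livers. Of these, 2 fell in ketogenic livers, Cps1 (-1.23 ± 0.21, adjusted p = 0.00142) and Serpina1c (-0.84 ± 0.23, adjusted p = 0.0231), and Cps1 fell in high-fat livers (-0.93 ± 0.21, adjusted p = 0.011). Stellate cell markers outside the 45 genes, 19 of them, summed to 275 to 355 CPM in ketogenic, 302 to 382 CPM in high-fat and 253 to 294 CPM in control livers. Of the 19, 1 rose in ketogenic and 2 in high-fat livers. Sod3, an extracellular superoxide dismutase, rose in both (0.50 ± 0.14, adjusted p = 0.027, and 1.04 ± 0.14, adjusted p = 0.000358), and the collectin gene Colec11 rose in high-fat livers (0.72 ± 0.12, adjusted p = 0.00176). The 11 portal fibroblast markers summed to 80.5 to 181 CPM in ketogenic, 122 to 174 CPM in high-fat and 86.9 to 106 CPM in control livers. Of the 10 tested, Entpd2, an ecto-enzyme of these cells, rose in both comparisons (1.07 ± 0.23, adjusted p = 0.00702, and 0.99 ± 0.23, adjusted p = 0.0125). Calls were lost for Serpina1c without control replicate 2 or 4 or ketogenic replicate 1 or 2 (adjusted p from 0.0546 to 0.0675). In ketogenic livers Sod3 was no longer called without control replicate 3, 4 or 5 or ketogenic replicate 2 (adjusted p from 0.0551 to 0.075), nor Entpd2 in high-fat livers without control replicate 4 (adjusted p = 0.0526). The part of these cell types in the matrix levels was not tested.

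Smooth muscle, endothelial and other markers are given by count. Of 11 vascular smooth muscle markers 2 rose in ketogenic livers, Tpm2 (1.53 ± 0.37, adjusted p = 0.0149) and Tpm1 (0.36 ± 0.10, adjusted p = 0.0238), and none was called in high-fat livers. Of 13 endothelial markers, the VEGF receptor gene Kdr fell in both comparisons (-0.60 ± 0.14, adjusted p = 0.0108, in ketogenic and -0.47 ± 0.14, adjusted p = 0.0391, in high-fat livers) and Vwf rose in high-fat livers (0.66 ± 0.18, adjusted p = 0.0293). None of the 6 cholangiocyte markers tested, of 9 listed, and none of the 7 mesothelial markers tested, of 9 listed, was called against control. Of 6 adipocyte markers, 5 were tested and Cfd rose in ketogenic livers (3.73 ± 0.85, adjusted p = 0.0139). Pancreatic acinar markers, 11 of them, summed to 6.96 to 330 CPM in ketogenic and 104 to 733 CPM in high-fat livers, and to 1611 CPM in control replicate 2 against 25.3 to 173 CPM in the other controls; none of the 10 tested was called. Control replicate 2 also had the highest fibrillar collagen sum of the 4 controls, and the relation was not tested. Calls were lost for Tpm2 without control replicate 4 (adjusted p = 0.0558) and for Tpm1 without control replicate 4 or 5 or ketogenic replicate 1, 2 or 5 (adjusted p from 0.052 to 0.0862). In high-fat livers they were lost for Kdr without control replicate 3 or 5 or high-fat replicate 3, 4 or 5 (adjusted p from 0.0774 to 0.129). For Vwf the call ended without control replicate 2, 3 or 5 or high-fat replicate 2, 3 or 4 (adjusted p from 0.0582 to 0.0755). With library totals Kdr was no longer called in either comparison.

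Genes of the same pathways outside the 45 were counted by list. Beside each count stand the shares over all tested genes, 7.47% higher and 4.60% lower in ketogenic livers. In high-fat livers these shares were 6.95% and 5.01%. Collagen folding and processing held 3 higher and 0 lower of 22 genes in ketogenic and 3 higher and 1 lower in high-fat livers, with medians of 0.20 in each over the 21 tested. Serpinh1, the collagen chaperone HSP47, averaged 21.95 ± 7.03 CPM in ketogenic, 23.9 ± 5.63 CPM in high-fat and 11.1 ± 2.92 CPM in control livers (0.99 ± 0.24, adjusted p = 0.0143, and 1.11 ± 0.24, adjusted p = 0.00812). Plod2, a lysyl hydroxylase, rose in ketogenic livers (1.55 ± 0.43, adjusted p = 0.0285), P3h2, a prolyl 3-hydroxylase, in both (0.83 ± 0.25, adjusted p = 0.0399, and 0.89 ± 0.25, adjusted p = 0.0308) and Tgm2, a transglutaminase, in high-fat livers (0.70 ± 0.21, adjusted p = 0.0394). Of 24 other collagens, 14 passed the filter, and 2 were higher and 0 lower in ketogenic and 2 higher and 2 lower in high-fat livers. Col12a1 rose in both (1.97 ± 0.31, adjusted p = 0.000623, and 1.65 ± 0.31, adjusted p = 0.00302), and Col16a1 rose in ketogenic livers (0.66 ± 0.19, adjusted p = 0.0304). In high-fat livers Col20a1 fell (-1.27 ± 0.34, adjusted p = 0.0231), and so did Col27a1, at 68.8 ± 21.2 CPM against 141 ± 15.2 CPM in control livers (-1.03 ± 0.29, adjusted p = 0.0301). In ketogenic livers Col27a1 averaged 78.7 ± 34.2 CPM, also under the control mean, but was not called. Calls were lost for Plod2 without control replicate 3, 4 or 5 or ketogenic replicate 2 or 5 (adjusted p from 0.0586 to 0.0933) and for P3h2 without any control, ketogenic replicate 1, 2 or 5 or high-fat replicate 3, 4 or 5 (adjusted p from 0.0505 to 0.101). They were lost for Tgm2 without any 1 library but high-fat replicate 1 (adjusted p from 0.0601 to 0.114) and for Col27a1 without any but high-fat replicate 1 and control replicate 5 (adjusted p from 0.0559 to 0.0763). The call on Col16a1 ended without control replicate 3, 4 or 5 or ketogenic replicate 1 or 5 (adjusted p from 0.0579 to 0.103), and that on Col20a1 without control replicate 3 or 5 or high-fat replicate 2 or 4 (adjusted p from 0.0548 to 0.0604). That on Serpinh1 in ketogenic livers was lost without control replicate 3 (adjusted p = 0.0538), while those on Col12a1 held in all 9 fits of each comparison.

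Proteases and their regulators outside the 45 held some of the largest fold changes. Of 32 such genes, 4 rose and 1 fell in ketogenic and 3 rose and 2 fell in high-fat livers, with medians of 0.88 and 0.62 over the 25 tested. Reck, a membrane inhibitor of metalloproteinases, averaged 2.35 ± 0.41 CPM in ketogenic, 2.91 ± 1.02 CPM in high-fat and 11.9 ± 3.65 CPM in control livers (-2.34 ± 0.26, adjusted p = 6e-05, and -2.04 ± 0.26, adjusted p = 0.000248). Mmp12, the elastase of macrophages, rose by 4.94 ± 0.90 (adjusted p = 0.00354) in ketogenic and 4.28 ± 0.89 (adjusted p = 0.0087) in high-fat livers. The calls on Reck and Mmp12 held in all 9 fits without 1 library.

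Among 23 laminins, nidogens and heparan sulfate proteoglycans, 2 rose and 3 fell in ketogenic and 2 rose and 2 fell in high-fat livers. Lamb3, a laminin chain of epithelial basement membranes, rose by 2.88 ± 0.38 (adjusted p = 0.000199) and 2.31 ± 0.37 (adjusted p = 0.00122), and the glypican gene Gpc1 by 2.11 ± 0.30 (adjusted p = 0.000409) and 1.79 ± 0.30 (adjusted p = 0.00172). The syndecan gene Sdc2 fell in ketogenic (-0.66 ± 0.13, adjusted p = 0.00315) and in high-fat livers (-0.49 ± 0.13, adjusted p = 0.0216). Of 40 other matrix glycoproteins and proteoglycans, 35 were tested, and 7 rose and 1 fell in ketogenic and 5 rose in high-fat livers. They included the tenascin gene Tnc in both (1.71 ± 0.43, adjusted p = 0.0162, and 1.83 ± 0.43, adjusted p = 0.0125) and Ccn1, a relative of Ctgf, in ketogenic livers (1.17 ± 0.20, adjusted p = 0.00116). They also included the elastic fibre gene Fbln5 and the matrilin gene Matn2 in high-fat livers (0.93 ± 0.20, adjusted p = 0.00706, and 1.08 ± 0.25, adjusted p = 0.0127). Smoc1 fell in ketogenic livers (-0.60 ± 0.12, adjusted p = 0.00478). The call on Sdc2 in high-fat livers ended without control replicate 4 or 5 or high-fat replicate 3 or 4 (adjusted p from 0.0581 to 0.0788) and the ketogenic call on Tnc without control replicate 4 or 5 (adjusted p = 0.0558 and 0.059).

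Signalling genes around TGF-beta and PDGF were also counted by list. Of all tested genes, 7.47% were higher and 4.60% lower in ketogenic livers, and 6.95% higher and 5.01% lower in high-fat livers. Of 22 TGF-beta receptors, SMADs and feedback genes, 2 rose and 1 fell in ketogenic and 1 rose in high-fat livers, with medians of -0.05 and -0.09. The corepressor gene Tgif1 rose (0.77 ± 0.21, adjusted p = 0.0247) and the ubiquitin ligase gene Smurf1 fell (-0.46 ± 0.13, adjusted p = 0.0239) in ketogenic livers. Of 18 PDGF ligands and collagen receptors, 15 were tested and 2 rose in ketogenic livers, Pdgfc (0.80 ± 0.21, adjusted p = 0.0195) and the collagen uptake receptor gene Mrc2 (1.06 ± 0.30, adjusted p = 0.0293), and none was called in high-fat livers. The call on Tgif1 was lost without control replicate 3 or 5 or ketogenic replicate 1, 2 or 5 (adjusted p from 0.0504 to 0.0887) and that on Smurf1 without control replicate 4 or 5 or ketogenic replicate 2 (adjusted p from 0.059 to 0.0928). Smurf1 was also not called with library totals. The call on Mrc2 was lost without control replicate 3, 4 or 5 or ketogenic replicate 1 (adjusted p from 0.0592 to 0.0871) and that on Pdgfc without control replicate 2 or 4 (adjusted p = 0.0519 and 0.052). No gene of these lists was called between ketogenic and high-fat livers.

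**Figure D5:**
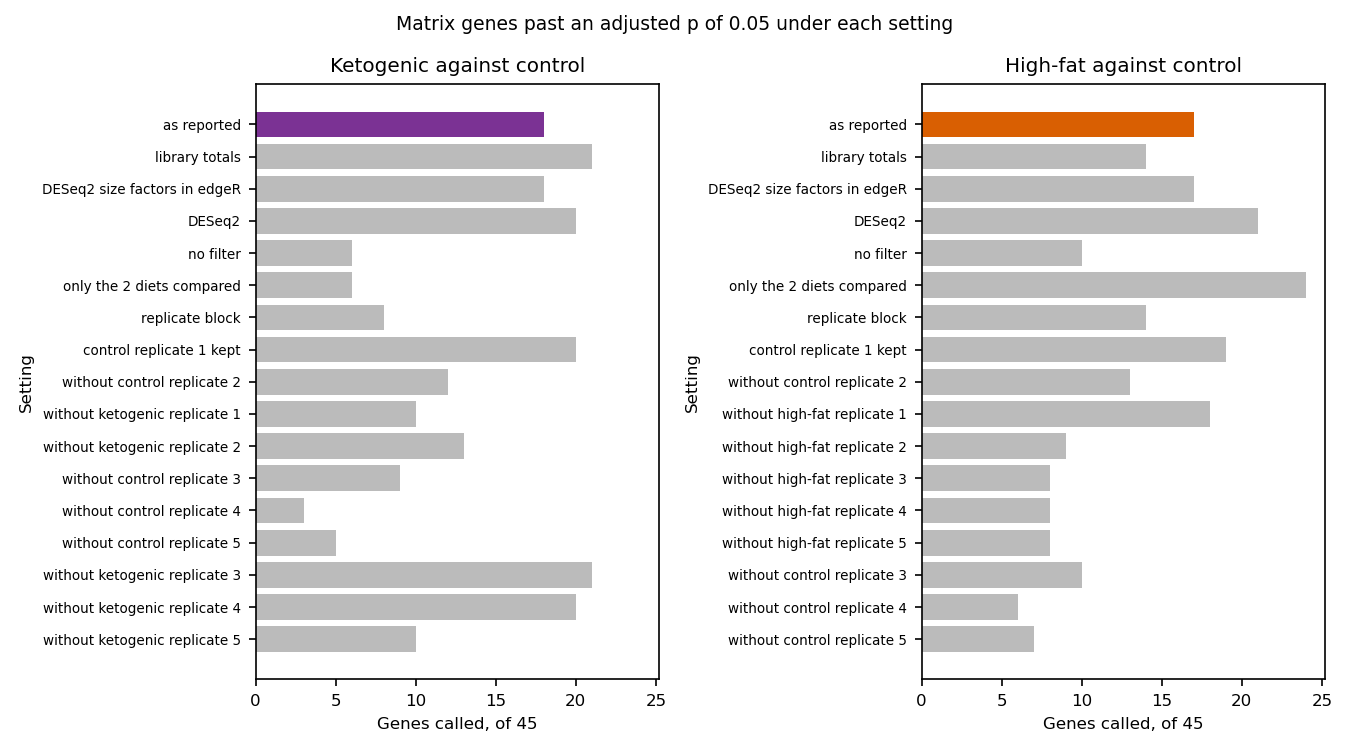
Bars count the matrix genes, of 45, with an adjusted p under 0.05 against control in each setting, ketogenic on the left and high-fat on the right; the coloured bar is the reported setting, with 18 and 17 genes. Counts are lowest without control replicate 4, at 3 and 6 genes, and the tool in the bar named DESeq2 is the only one that is not edgeR.

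How far the calls rested on single libraries is plotted as the count of genes past the threshold by setting. Of the 18 ketogenic calls, 3 held in all 9 fits without 1 library, on Loxl2, Lum and Tagln, and of the 17 high-fat calls 6 did, on Col6a1, Loxl2, Tagln, Rgs5, Thbs1 and Postn. Both Loxl2 and Tagln also held in every other setting in both comparisons.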

How the data were processed

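Per the submitters' processing notes, the tools were cutadapt 1.16, STAR 2.7.9a, featureCounts 1.6 and DESeq2 1.36.0 with the mouse build GRCm39; what each did, the annotation release and the strand setting were not given in the sources used here. The authors deposited raw read counts, with a row for each Ensembl gene ID. Symbols were taken from GENCODE names for GRCm38, with no coordinates, for 91.39% of IDs. No 2 of the 15 libraries had identical counts.

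The fit kept genes that passed filterByExpr (counts of at least 10, totals of at least 15) and used TMM scaling (factors 0.886 to 1.215) in 1 model of 3 diets with edgeR 4.0.16 in R 4.3.3 (robust glmQLFit, two-sided glmQLFTest, diet the only covariate). Benjamini-Hochberg adjustment ran over 14627 genes. The biological coefficient of variation was 0.25. SEs were taken from each log2 fold change and its F statistic (the change over the root of F). Alternatives were library totals, DESeq2 size factors, DESeq2 1.42.0, no filter, pairwise fits, a replicate block, control replicate 1 kept and each library left out; for genes outside the 45 they were chosen after seeing the data.

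The 45 genes and the lists were chosen with earlier results of these data known. Values in every library are given for genes called in any comparison and for Col1a1, Col1a2, Col3a1, Col4a1, Timp1, Acta2, Pdgfrb, Tgfb1, Fn1, Lum and Dcn; of each other list, up to 3 called genes with the smallest adjusted p are named, apart from 1 gene that is not reported here.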

Additional observations from a re-analysis of the deposited data

Results flagged for a closer look

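In 135 groups of values (45 genes in 3 diets), the highest or lowest library was examined for a gap to its nearest neighbour. The gap counted when it was large against the group's range, and 17 stood apart. The rule is set for about 1 in 20 independent groups of normal values. These groups share their libraries, so 17 of 135 does not measure an excess over chance. Ketogenic replicate 5 accounted for 9 of the 17. It was highest for Mmp14 at 52.3 CPM (35.7 to 40.5 in the other ketogenic libraries), Timp1 at 2.82 CPM (0.138 to 0.869), Timp2 at 38.4 CPM (17.6 to 23.3), Dpt at 21.7 CPM (5.12 to 8.83), Dcn at 275 CPM (162 to 180), Bgn at 175 CPM (103 to 123), Vim at 78.9 CPM (29.3 to 34.8) and Tgfb1 at 22.4 CPM (8.91 to 11.1). For Col18a1 it was lowest, at 721 CPM (979 to 1080). The same library had the highest summed macrophage markers, 1201 CPM, and the lowest summed hepatocyte markers, 90750 CPM; their part in these values was not tested.

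Control replicate 2 accounted for 4, all highest of its group: Col5a2 at 4.81 CPM (3.03 to 3.33 in the other controls), Lox at 0.679 CPM (0.171 to 0.256), Eln at 5.83 CPM (1.64 to 2.09) and Tgfb3 at 1.64 CPM (0.799 to 0.916). Pancreatic acinar markers summed to 1611 CPM in that library and 25.3 to 173 CPM in the other controls, and their part was not tested. High-fat replicate 1 was highest of its group for Dpt at 14.1 CPM (9.65 to 10.6) and lowest for Postn at 12.4 CPM (24.3 to 25.8). High-fat replicate 5 was lowest for Fn1 at 1050 CPM (1630 to 1860), and control replicate 5 was highest for Ctgf at 10.4 CPM (4.99 to 5.2).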

How the results depend on the processing

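The number of matrix genes called against control, 18 in ketogenic and 17 in high-fat livers, was 6 and 10 without the filter on low counts. With only the 2 diets compared in a fit, the counts moved in opposite directions, to 6 of 44 tested in ketogenic and 24 of 43 tested in high-fat livers. Leaving out 1 library gave 3 to 21 in ketogenic and 6 to 18 in high-fat livers. Between ketogenic and high-fat livers the 0 genes became 1 with DESeq2, and 0 to 3 with 1 library left out. Over all genes, leaving out 1 library gave 1056 to 2201 calls in ketogenic livers (1766 with all) and 934 to 2145 in high-fat livers (1749 with all). Between ketogenic and high-fat livers, the 9 calls over all genes became 15 with library totals, 168 with DESeq2, 26 without the filter, 1 with only these 2 diets in the fit, and 1 to 315 with 1 library left out. In none of these settings did a called gene of the 45 change sign. The cause of these changes was not tested.

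Replicate numbers recur across diets, but no label says that they mark a shared cage or day. Correlations of the deviations of same-numbered libraries from their group means ran from -0.404 to 0.418, and the numbers were not taken as pairs. Correlations between libraries of different numbers were not worked out. With the replicate number as a block, 8 matrix genes were called in ketogenic, 14 in high-fat livers and 0 between these diets, where all genes had 15 calls.

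Signs turned only for values that were not called. With library totals, log2 fold changes against control became 0.004 in ketogenic and 0.022 in high-fat livers for Col18a1, and 0.143 and 0.004 for Mmp14. With control replicate 1 kept, the ketogenic values became 0.002 for Mmp14 and -0.007 for Timp3, and with DESeq2 that of Timp3 became -0.002. With 1 library left out, the ketogenic value of Timp3 ran from -0.11 to 0.112, that of Tgfb1 from -0.205 to 0.231, and the high-fat value of Eln from -0.005 to 0.818. Ketogenic over high-fat values then ran from -0.176 to 0.491 for Col1a1 and from -0.146 to 0.508 for Col3a1.

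Counts limit Mmp13, Timp1, Lox and Tgfb2 most, since each held few reads per library.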

Other observations

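Type I collagen is built from alpha 1 and alpha 2 chains, encoded by Col1a1 and Col1a2. The ratio of Col1a1 to Col1a2 counts, not corrected for gene length, was 0.939, 0.851, 0.735, 0.786 and 0.994 in ketogenic livers, 0.802, 0.792, 0.971, 0.79 and 0.907 in high-fat livers and 0.764, 0.63, 0.682 and 0.38 in control livers. Control replicate 5 had the lowest ratio and ketogenic replicate 5 the highest. The ranges of the ketogenic and control libraries overlapped, those of the high-fat and control libraries did not, and no test was run on this ratio.

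Control replicate 1, which the submitters exclude as contaminated, was in no comparison. Of the 45 matrix genes, 13 lay above the range of the other 4 controls in that library, 29 within it and 3 below it. The 13 ran from 1.01 times the highest other control (Pdgfra) to 1.61 times (Des). That library was scaled in a fit of all 15 libraries and the other controls in the fit of 14. No such count was made over all genes, so whether it is particular to the matrix genes was not tested.

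Some of the 45 genes are neighbours with no protein-coding gene between them: Col3a1 and Col5a2 on chromosome 1, Col6a1 and Col6a2 and also Dcn and Lum on chromosome 10, and Col4a1 and Col4a2 on chromosome 8. In ketogenic livers against control, the log2 fold changes of these pairs were 1.55 ± 0.40 and 1.05 ± 0.35, 0.82 ± 0.20 and 0.90 ± 0.26, 0.38 ± 0.15 and 1.28 ± 0.31, and 1.08 ± 0.29 and 0.91 ± 0.23. The difference within a pair was not tested.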
